A study of Mus musculus with 4 samples.

Results

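Adrenomedullin is a secreted vasoactive peptide encoded by Adm, and its receptor is built from the calcitonin receptor-like receptor (Calcrl) and 1 of 3 receptor activity-modifying proteins (Ramp1, Ramp2 and Ramp3). These 5 genes were described in single-cell RNA-sequencing data from the brain vasculature of Angpt2-KO and Angpt2-WT mice. They were taken by symbol from the 32286 genes of the count matrices and read in the 17999 of 19809 barcodes that had over 500 genes and under 10% of unique molecular identifiers (UMIs) in mitochondrial genes. The 4 mice were 3 months old, on a C57BL6/J background: 2 Angpt2-WT (called WT1 and WT2) and 2 Angpt2-KO littermates (KO1 and KO2), in which exon 4 of Angpt2 is deleted in every cell from a floxed allele by Pgk-Cre. The mice numbered 1 were female and those numbered 2 male, and each mouse gave 1 library of 10x 3′ tags from vascular fragments that were pulled from the cerebrum with PECAM1 antibody beads.

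Adrenomedullin dilates vessels, tightens the endothelial barrier and acts on lymphatic and blood vessel growth, and its gene is a textbook target of the hypoxia-inducible factors. Calcrl reaches the cell surface only with a RAMP partner. With Ramp2 or Ramp3 it binds adrenomedullin, and with Ramp1 it binds calcitonin gene-related peptide (CGRP), the neuropeptide that relaxes arterial smooth muscle. Endothelial cells are known for carrying Calcrl with Ramp2.

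The kept cells held between 31753395 and 42903731 UMIs per library, with a median of 4088.5 to 7351.5 UMIs per cell. Members and pathway genes were left out of the clustering that defined the cell types. Endothelial cells (ECs) numbered 14158, with all 7 endothelial markers detected in every mouse. The pericyte-like (596), smooth muscle-like (703), microglia-like (904) and fenestrated endothelial-like (813) clusters were compared with them. Within ECs the clusters were capillary-like (7562), arterial-like (1050), venous-like (703), an unnamed cluster with Flrt2 and Wnt5a among its leading genes (3106), and an angiogenic cluster (1737), named by a score of basement membrane and matrix genes that the study took from these libraries, Col4a1, Nid1 and Sparc among them. The angiogenic cluster held 27 and 29 cells of WT1 and WT2 and 833 and 848 cells of KO1 and KO2. ECs with 1 UMI or more of Apln, which encodes apelin, a peptide of sprouting endothelium, are called Apln-positive. There were 38 and 64 of them in WT1 and WT2 and 392 and 308 in KO1 and KO2. Angpt2 itself was at 10.6 and 9.96 CPM (the usual depth-scaled unit, here a gene's UMIs over all UMIs of that class in that mouse) in WT ECs and at 65.4 and 41 CPM in KO ECs. A 3′ tag lies outside the deleted exon, so these values check neither label. The 4 libraries shared 40 of the 19809 barcodes.

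Adm lies at chr7:110627661-110629820 on the plus strand (GRCm38) and is covered from end to end by the antisense gene Gm28863, which had 0 UMIs in the ECs of WT1, WT2 and KO2 and 1 in those of KO1. Calcrl lies at chr2:84330626-84425411 on the minus strand, Ramp1 at chr1:91179822-91225196, Ramp2 at chr11:101246028-101259546 and Ramp3 at chr11:6658521-6677475, all 3 on the plus strand. The annotation of Ramp2 shares 5840 bases with Vps25 on the same strand. Vps25 was at 2.96 to 3.77 CPM in ECs, and how reads in the shared stretch were counted is not given in the sources used here.

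The promoter of Adm is shown because Adm was the member that differed between genotypes. The window runs from 250 bases before the RefSeq start to 50 after it, at chr7:110627407-110627706 on the plus strand (GRCm38.p6), and the capitals mark the core of the hypoxia response element, searched as ACGTG or GCGTG on both strands.
Adm: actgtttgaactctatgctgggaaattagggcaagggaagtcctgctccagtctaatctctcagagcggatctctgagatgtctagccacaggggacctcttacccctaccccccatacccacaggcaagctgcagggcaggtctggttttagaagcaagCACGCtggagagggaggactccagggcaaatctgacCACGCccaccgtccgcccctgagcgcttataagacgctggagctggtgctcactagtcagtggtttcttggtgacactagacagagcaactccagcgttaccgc
Both matches were GCGTG on the minus strand, 90 and 54 bases before the start. These letters are common: 43.8% of 32851 mouse promoters of the same length held 1 match or more, and 20.6% held 2 or more. The window also held 2 matches of TATAA, searched on both strands, which overlap in 1 stretch read from either strand. Of the promoters 24.9% had 1 such match or more and 9.7% had 2 or more. Of the receptor genes in the same table, Ramp3 had 2 matches of the response element core, Calcrl 1 and Ramp1 0. Ramp2 was not in the table.

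Adm, the ligand, was low in most ECs and high in the angiogenic cluster and in Apln-positive ECs. In all ECs together it stood at 17.3 and 17.5 CPM in WT1 and WT2 and at 95.5 and 39.5 CPM in KO1 and KO2. Both KO mice were above both WT mice, and KO1 was above KO2. The means were 17.4 ± 0.103 CPM in WT and 67.5 ± 39.6 CPM in KO (SD, n = 2 mice each). The fitted difference was 1.94 on the log2 scale (SE 0.337), a 3.83-fold higher level in KO, with an adjusted p of 0.0139 (edgeR quasi-likelihood test on UMIs summed per mouse). Of the 5 members, 1 was called higher and 0 lower, against 6.02% of all 13530 genes called in either direction. Leaving out WT1 or WT2 kept the difference at 1.97 and 1.92 but took the adjusted p to 0.0796 and 0.0765, and leaving out KO1 or KO2 gave 1.17 and 2.47. With cells thinned to 2000 UMIs, which weights cells more evenly, the value was 0.88 (adjusted p = 0.0289). A p here rests on 2 mice per genotype. Because edgeR shares its variance estimate across genes, it is no measure of their spread alone.

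Split by the angiogenic cluster, KO and WT did not differ in Adm past the test on either side. Within the cluster Adm was at 94.0 and 154 CPM in WT1 and WT2 and at 172 and 108 CPM in KO1 and KO2, so the genotypes overlapped. A fit on that cluster alone, chosen after seeing the data, gave 0.18 (SE 0.32, adjusted p = 0.921 by edgeR). The WT values there rest on 33 and 53 UMIs of Adm. Outside the cluster Adm was at 16.3 and 16.1 CPM in WT and at 11.4 and 11.8 CPM in KO. Both KO mice lay below both WT mice there, by 0.50 on the log2 scale (SE 0.126), which did not pass (adjusted p = 0.125, edgeR; 0 of 5 members called against 1.28% of 13172 genes). With no filter on low counts the same fit gave -0.52 and an adjusted p of 0.022.

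**Figure D1:**
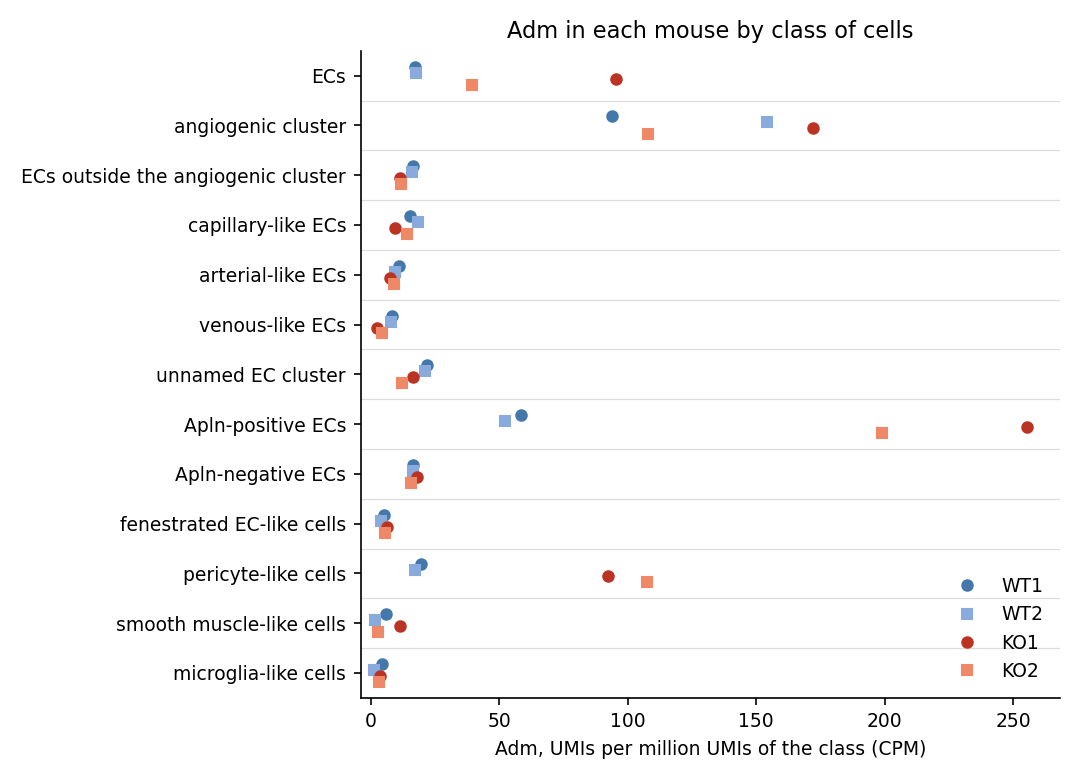
Adm in CPM of the class (x axis) for each class of cells (y axis) in WT1, WT2, KO1 and KO2, 1 point per mouse. KO points lie to the right of WT points in all ECs, in Apln-positive ECs and in pericyte-like cells, while in the angiogenic cluster the 4 mice overlap between 94.0 and 172 CPM.

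In KO, most Adm UMIs of ECs lay in the angiogenic cluster, and in WT most lay outside it. In WT1 and WT2 the angiogenic cluster held 0.837% and 0.617% of ECs and 7.21% and 8.94% of the Adm UMIs. In KO1 and KO2 it held 39.9% and 20.5% of ECs and 94.3% and 78.8% of the Adm UMIs. Apln-positive ECs likewise held 7.42% and 10.3% of the Adm UMIs in WT and 87.5% and 65.6% in KO. ECs with 10 or more Adm UMIs numbered 0 and 2 in WT1 and WT2 and 50 and 15 in KO1 and KO2, and the highest single cells held 7, 13, 117 and 94 in the same order.

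**Figure D2:**
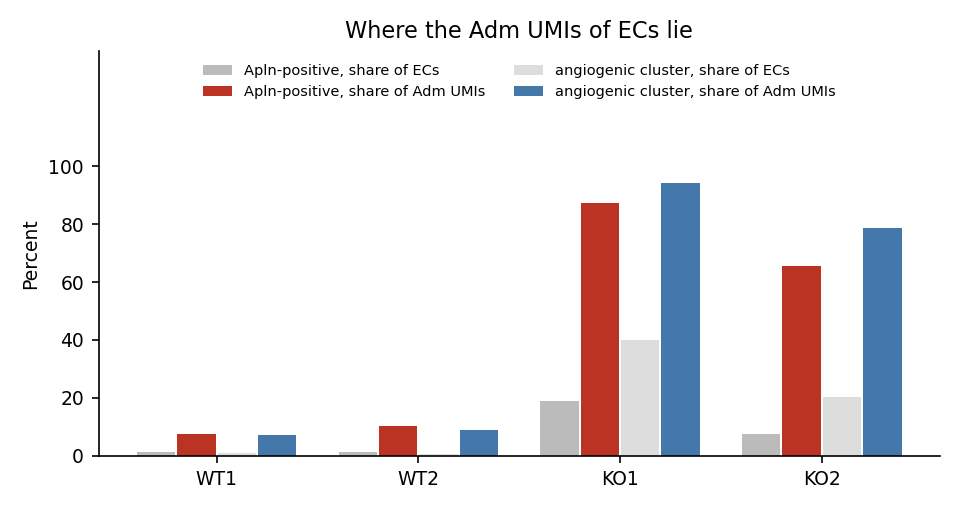
Share of ECs (grey bars) and share of all Adm UMIs of ECs (coloured bars) that lie in Apln-positive ECs and in the angiogenic cluster, in percent, 1 set of bars per mouse. In each mouse the coloured bar is taller than its grey neighbour, and in KO1 and KO2 the angiogenic cluster holds 94.3% and 78.8% of the Adm UMIs.

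The share of ECs with an Adm UMI was 9.71% (95% exact interval 8.71 to 10.8) in WT1, 8.90% (8.10 to 9.75) in WT2, 18.3% (16.7 to 20) in KO1 and 8.08% (7.27 to 8.95) in KO2. Depth differs between libraries, so each cell was also thinned to 2000 UMIs, which kept 3046, 4122, 1976 and 3540 ECs. The shares were then 3.78% and 3.52% in WT and 7.03% and 3.96% in KO, a difference in means of 1.85 percentage points (exact permutation test over mice, two-sided p = 0.33, the smallest that 2 against 2 allows). Microglia-like cells, given for comparison, had thinned shares of 0%, 0%, 0.84% and 0.467%. Intervals cover counting error only.

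Apln-positive ECs carried more Adm than Apln-negative ECs in all 4 mice. The levels were 58.3, 52.3, 256 and 199 CPM in Apln-positive ECs of WT1, WT2, KO1 and KO2 and 16.4, 16.2, 17.8 and 15.6 CPM in Apln-negative ECs. The lowest Apln-positive value was above the highest Apln-negative one. Over the 4 mice the difference was 3.04 on the log2 scale (SE 0.34, adjusted p = 0.000642, edgeR with mouse as a term). Of the 4 members tested 2 were called, Adm higher and Ramp3 lower, against 8.04% of 12152 genes. Among ECs outside the angiogenic cluster the Adm difference was 0.63 (adjusted p = 0.0285), and inside it, in the KO mice, 3.44 (adjusted p = 3.68e-305). Fits within a genotype, here and below, rest on 2 mice. Because edgeR shares its variance estimate across genes, their p is no measure of mouse-to-mouse spread alone. Apln-positive cells were deeper, with a median of 5881 to 13090 UMIs per mouse against 3792 to 6959.

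The Adm difference by Apln was larger in KO than in WT. It was 1.71 (SE 0.192, adjusted p = 3.27e-08) in WT and 3.77 (SE 0.0874, adjusted p = 3.06e-28) in KO, each from an edgeR fit within the genotype. The test of the difference itself gave 2.07 (SE 0.171, adjusted p = 2.49e-12, edgeR interaction term; 3 of 4 members called against 4.74% of 12876 genes). That p likewise leans on variance shared across genes and is no measure of the spread over the 4 mice alone. With Apln-positive cells set after thinning the interaction value was 2.15 with an adjusted p of 0.148. KO Apln-positive ECs held 2.06 more Adm on the log2 scale than WT Apln-positive ECs (SE 0.196, 4.17-fold, adjusted p = 3.67e-05, edgeR; 1 of 4 members called against 9.97% of 10097 genes). Set after thinning, that difference was 1.58 with an adjusted p of 0.297. In Apln-negative ECs the same contrast was 0.0097 (SE 0.119, adjusted p = 0.979; 0 of 5 members called against 4.02% of 13314 genes).

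The Apln-positive ECs of the genotypes came from different clusters. In WT1 and WT2 9 of 38 and 9 of 64 lay in the angiogenic cluster, and in KO1 and KO2 301 of 392 and 177 of 308. Apln-positive ECs inside the angiogenic cluster had Adm at 167 and 396 CPM in WT, from 9 cells each, and at 322 and 304 CPM in KO. Outside the cluster they had 30.2 and 21.5 CPM in WT and 16.2 and 19.0 CPM in KO. Neither split put both KO mice above both WT mice. Apln-negative cells of the angiogenic cluster had 56.2 and 60.6 CPM in WT and 28.8 and 29.8 CPM in KO, above the 10.5 to 16.1 CPM of Apln-negative ECs outside it.

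At equal depth, the share of KO ECs with Adm was higher at each step of Apln UMIs. Among ECs thinned to 2000 UMIs with no Apln UMI, 3.72%, 3.46%, 3.1% and 2.72% had an Adm UMI in WT1, WT2, KO1 and KO2. With 1 Apln UMI the shares in KO1 and KO2 were 19.5% of 82 cells and 13% of 92 cells. With 2 they were 30.4% of 23 and 20.8% of 24 cells, and with 3 or more 62.9% of 97 and 70.5% of 44 cells. WT mice had 0 to 15 cells in each bin with Apln, too few to place beside these. The cells in these bins come from the same 2 libraries, and this is a description over cells.

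**Figure D3:**
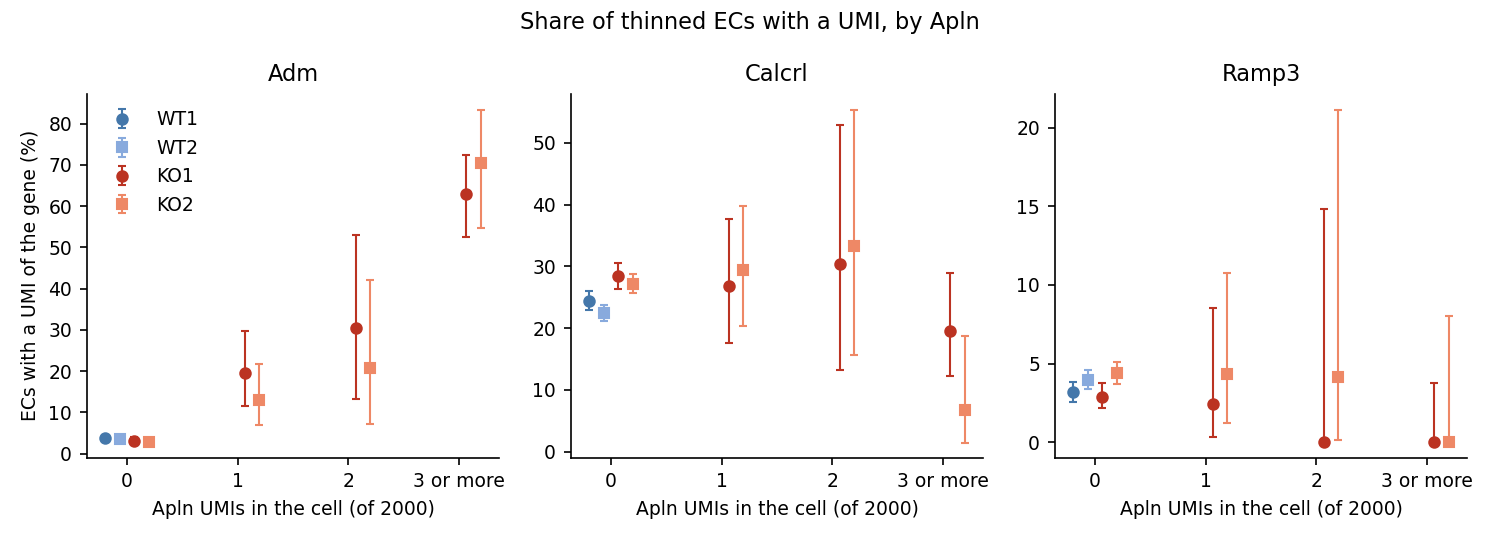
Share of ECs with a UMI of Adm, Calcrl or Ramp3 in percent (y axes, separate scales) by the number of Apln UMIs (x axis), after each cell was thinned to 2000 UMIs, with exact 95% intervals; points are mice with 20 or more cells in the bin. Adm climbs to 62.9% and 70.5% in KO1 and KO2 at 3 or more Apln UMIs, and Ramp3 is at 0% of 97 and 44 cells there.

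Along the vessel tree, Adm was higher in capillary-like ECs than in arterial-like or venous-like ECs. It was at 15.3, 18.2, 9.22 and 13.9 CPM in capillary-like ECs of WT1, WT2, KO1 and KO2, at 10.9, 9.29, 7.27 and 8.91 CPM in arterial-like ECs and at 8.21, 7.61, 2.18 and 4.25 CPM in venous-like ECs. Each mouse had the same order. The capillary-like class joins 2 clusters. In the same order of mice, the larger had Adm at 9.18, 11.5, 8.28 and 8.73 CPM, overlapping arterial-like ECs. The smaller had 21.1, 23.05, 10.75 and 19.5 CPM. Arterial-like ECs were lower by -0.70 (SE 0.171, adjusted p = 0.00198, edgeR with mouse as a term; 3 of 4 members called against 36.2% of 9781 genes) and venous-like ECs by -1.25 (SE 0.187, adjusted p = 9.91e-06; 2 of 4 called against 35.8% of 10218 genes). With DESeq2, with thinned cells and with the finer EC clusters the arterial-like difference did not pass (adjusted p 0.0614, 0.0727 and 0.0581), and with thinned cells neither did the venous-like one (adjusted p = 0.0511). Within the KO mice, where the angiogenic cluster was large, it exceeded the other ECs in Adm by 3.55 (SE 0.116, 11.7-fold, adjusted p = 1.01e-14; 3 of 4 members called against 20.8% of 10998 genes).

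Zone by zone, KO and WT did not differ in Adm past the test. The fitted values were -0.48 (SE 0.195, adjusted p = 0.345) in capillary-like ECs, -0.36 (SE 0.364, adjusted p = 0.885) in arterial-like ECs and -1.26 (SE 0.512, adjusted p = 0.414) in venous-like ECs, all by edgeR. In each zone both KO mice lay below both WT mice, and the venous-like KO values rest on 2 and 7 UMIs. In these zones 0 of 4 members tested were called, against 1.8%, 0.312% and 0.174% of all genes.

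The order of Adm over the 13 classes, by mean CPM, was led by the angiogenic cluster (132 ± 37.2, SD, n = 4 mice) and pericyte-like cells (59.0 ± 47.5), followed by the unnamed EC cluster (17.8 ± 4.57). Neighbours overlapped over mice throughout, except that T or NK cell-like cells, with 0 UMIs of Adm in 18, 32, 21 and 14 cells, lay below microglia-like cells. The pericyte-like mean pools 19.3 and 17.1 CPM in WT with 92.3 and 107 CPM in KO. Pericyte-like cells did not differ from ECs past the test (0.47, SE 0.219, adjusted p = 0.141, edgeR). Without cells with markers of another class they were lower than ECs (-0.78, adjusted p = 0.0491, edgeR). Fenestrated endothelial-like cells, which in the brain are choroid plexus and circumventricular capillaries, had 5.11, 4.05, 6.06 and 5.59 CPM. That was lower than in ECs by -2.89 (SE 0.287, adjusted p = 7.12e-05, edgeR; 3 of 4 members called against 35.6% of 11437 genes). Without the cells of this cluster that held 5 or more endothelial markers, and without ECs with markers of another class, the Adm difference was -0.76 and did not pass (adjusted p = 0.578). The cluster is itself endothelial, so this filter took out most of its cells in every mouse and cannot separate mixed cells from its own. Smooth muscle-like and microglia-like cells were at 1.57 to 11.4 and 1.35 to 4.18 CPM.

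Pericyte-like cells showed the largest KO difference in Adm of the 9 classes tested. Adm was at 19.3 and 17.1 CPM in WT1 and WT2 and at 92.3 and 107 CPM in KO1 and KO2, with no overlap. The difference was 2.43 on the log2 scale (SE 0.254, 5.39-fold, adjusted p = 1.95e-05, edgeR; 1 of 3 members tested called against 5.62% of 9766 genes). These cells carried endothelial RNA in every mouse: all 7 endothelial markers were detected, at 6840, 7559, 7551 and 7645 CPM in sum, beside 13330, 13650, 12600 and 13110 CPM for the 8 pericyte markers. Cells with UMIs of 5 or more endothelial markers made up 30.1% and 30.6% of pericyte-like cells in WT and 51.5% and 49.8% in KO, and these held 72.7%, 94.1%, 93.3% and 92.0% of the Adm UMIs. Without them Adm was at 16.5 and 3.14 CPM in WT and at 39.0 and 41.9 CPM in KO, on 3, 1, 23 and 14 UMIs, and the difference of 2.21 did not pass (adjusted p = 0.319). Apln was at 1.76 and 1.01 CPM in WT and at 505 and 291 CPM in KO pericyte-like cells. Among pericyte-like cells with no Apln UMI, a choice made after seeing the data, the Adm difference was 0.47 (SE 0.351, adjusted p = 0.648). Pericyte-like cells with Adm had a median of 21060, 14730, 31520 and 14700 UMIs, against 3602, 3556, 6929 and 4152 in those without. In KO1 the 5 erythrocyte markers also summed to 9449 CPM in this class, against 80.8 to 909.6 CPM in the other mice. How much of the Adm in this class belonged to endothelial RNA was not tested.

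Calcrl, the 7-transmembrane subunit shared by all 3 receptors, was highest in venous-like and fenestrated endothelial-like cells and did not differ between genotypes past the test in any class. In ECs it was at 149 and 144 CPM in WT and at 159.6 and 164 CPM in KO. At 2000 UMIs per cell 24.4%, 22.4%, 28.0% and 27.0% of ECs had a Calcrl UMI, against 3.82%, 11.4%, 7.14% and 7.01% of microglia-like cells. Both KO levels were above both WT levels, and the difference was 0.13 (SE 0.0999, adjusted p = 0.548, edgeR). Over the 11 classes in which genotypes were compared, Calcrl was tested in 11 and called in 0, with fitted values from -0.32 to 0.35 and adjusted p from 0.272 to 0.984.

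By zone, Calcrl was at 243, 215, 271 and 319 CPM in venous-like ECs of WT1, WT2, KO1 and KO2. Capillary-like ECs had 138, 125, 149.8 and 151 CPM and arterial-like ECs 100.9, 84.9, 135 and 112 CPM. All 4 venous-like values were above all 4 capillary-like ones, with a difference of 0.83 (SE 0.081, adjusted p = 1.86e-08, edgeR). Arterial-like ECs were lower than capillary-like ones in each mouse, by -0.46 (SE 0.0755, adjusted p = 1.76e-05). Calcrl thus ran opposite to Adm between the capillary-like and venous-like zones, where Adm fell by 1.25. In fenestrated endothelial-like cells Calcrl was at 234, 261, 299.8 and 359.5 CPM, higher than in ECs by 0.90 (SE 0.0859, adjusted p = 5.68e-05). This cluster is itself endothelial, and 82.2% to 92.9% of its cells per mouse held 5 or more endothelial markers; without those cells the difference was -0.14 (adjusted p = 0.879). The means of fenestrated endothelial-like cells (289 ± 54.4) and venous-like ECs (262 ± 44.6) overlapped, and every other class lay below both.

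In the angiogenic cluster Calcrl was at 148, 128, 162 and 164 CPM, and within KO it did not differ from the other ECs past the test (0.03, SE 0.0673, adjusted p = 0.814). Apln-positive and Apln-negative ECs differed by 0.09 over the 4 mice (SE 0.106, adjusted p = 0.683). Outside the angiogenic cluster that difference was 0.27 (adjusted p = 0.0203), and within the cluster in the KO mice it was -0.34 (adjusted p = 6.83e-05). The Apln difference was 0.35 (SE 0.11, adjusted p = 0.0919) in WT and -0.13 (SE 0.075, adjusted p = 0.21) in KO, and the test between them gave -0.48 (SE 0.134, adjusted p = 0.0227). That call did not hold with DESeq2 (adjusted p = 0.364) or without KO1 or WT2 (-0.40 and -0.21, adjusted p = 0.36 and 0.802), and with thinned cells the value turned to 0.42. At 3 or more Apln UMIs, 19.6% of 97 and 6.82% of 44 thinned KO cells had a Calcrl UMI, against 28.5% and 27.2% of those with none.

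**Figure D4:**
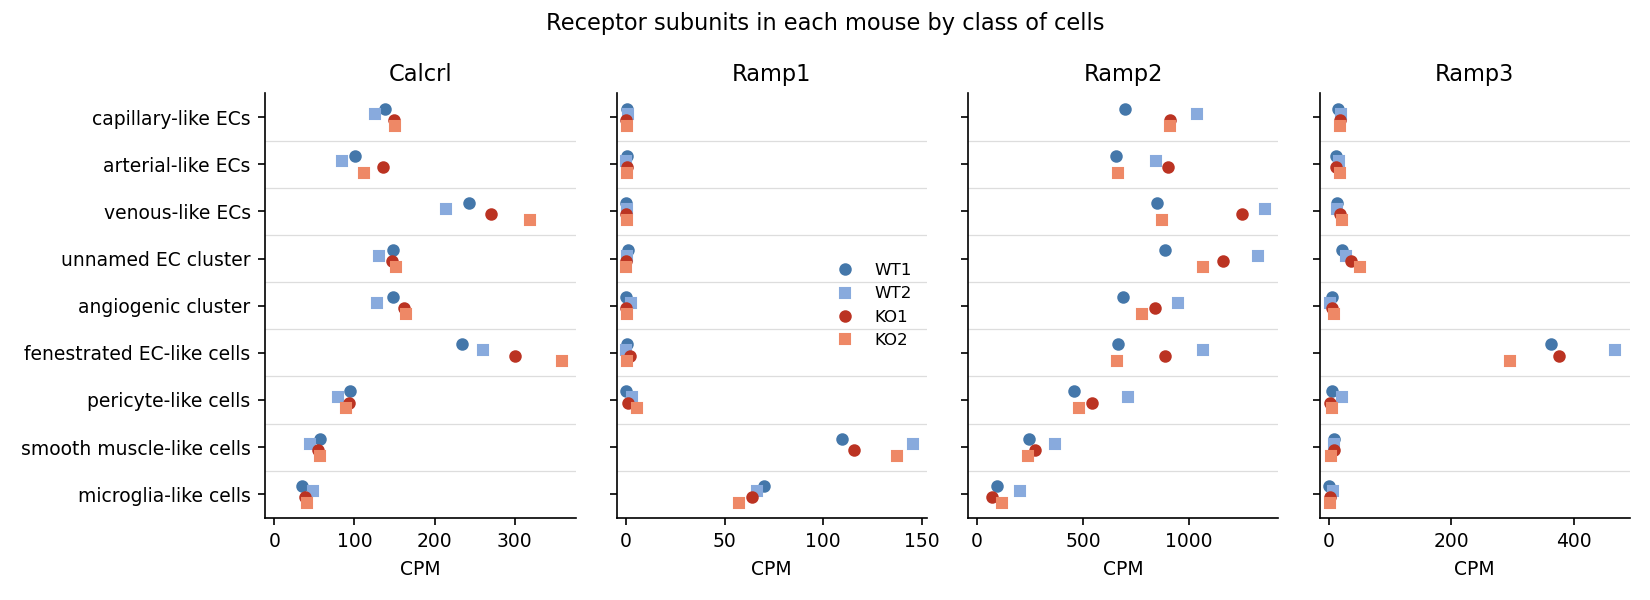
Calcrl, Ramp1, Ramp2 and Ramp3 in CPM of the class (x axes, a separate scale for each gene) by class of cells (y axis), 1 point per mouse. Calcrl is highest in venous-like and fenestrated endothelial-like cells, Ramp1 in smooth muscle-like cells of the 9 classes plotted, and Ramp3 stands at 296 to 468 CPM in fenestrated endothelial-like cells only.

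Ramp2, the partner that forms the adrenomedullin-1 receptor, was detected across all endothelial clusters. In ECs it was at 779.6 and 1201 CPM in WT1 and WT2 and at 936 and 882 CPM in KO1 and KO2. The WT mice enclosed the KO mice, and the difference was -0.14 (SE 0.202, adjusted p = 0.782, edgeR). WT2 was also the highest mouse in pericyte-like, smooth muscle-like and microglia-like cells. At 2000 UMIs per cell, 72.8%, 84.7%, 79.7% and 77.1% of ECs had a Ramp2 UMI, against 8.28%, 11.4%, 5.04% and 10.3% of microglia-like cells. Across the zones Ramp2 was lower in arterial-like than in capillary-like ECs by -0.26 (SE 0.0688, adjusted p = 0.00363). It did not pass without mouse as a term (adjusted p = 0.155), and with the finer EC clusters it was -0.64. The Ramp2 difference between venous-like and capillary-like ECs did not pass (0.22, SE 0.0935, adjusted p = 0.0697). With the finer EC clusters that difference turned to -0.29 and passed (adjusted p = 0.0146, edgeR), so its direction depended on the clustering. In pericyte-like cells it was at 459, 713, 539 and 479.9 CPM, lower than in ECs by -0.83 (SE 0.0627, adjusted p = 4.06e-07; 4 of 5 members called against 26% of 11723 genes). With thinned cells the Ramp2 difference was -1.43, and without cells with markers of another class it was -4.56 (adjusted p = 1.56e-13).

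Within KO, Ramp2 was lower in the angiogenic cluster than in the other ECs, at 838 and 777.5 CPM against 1043 and 924 CPM. The difference was -0.28 (SE 0.0763, adjusted p = 0.0134, edgeR), and it did not pass with thinned cells (-0.16, adjusted p = 0.238) or with the finer EC clusters (-0.16, adjusted p = 0.33). Apln-positive ECs of KO had less Ramp2 than Apln-negative ones (-0.40, SE 0.0804, adjusted p = 0.000176), at 755 and 698 CPM against 1024 and 909 CPM. In WT the same contrast was 0.02 (SE 0.0701, adjusted p = 0.978), and the test of the difference gave -0.41 (SE 0.104, adjusted p = 0.0109). Within the angiogenic cluster of the KO mice, Apln-positive cells had less Ramp2 by -0.55 (adjusted p = 1.05e-22). With thinned cells the difference between genotypes was -0.0067, with an adjusted p of 0.999, and without WT1 or WT2 it did not pass (-0.41 and -0.39, adjusted p = 0.0762 and 0.265).

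Ramp3, the partner that forms the adrenomedullin-2 receptor, was a gene of fenestrated endothelium in these data. It was at 363, 468, 375 and 296 CPM in fenestrated endothelial-like cells of WT1, WT2, KO1 and KO2, whereas ECs had 16.5, 21.0, 15.4 and 22.9 CPM. The lowest fenestrated value was above the highest EC value, and the difference was 4.32 on the log2 scale (SE 0.16, 20-fold, adjusted p = 7.56e-07, edgeR). Without cells with 5 or more endothelial markers in the cluster, and without mixed ECs, it was 2.76 (adjusted p = 2.51e-11). That filter took out most cells of this cluster, which is itself endothelial, and so cannot separate mixed cells from its own. At 2000 UMIs, 49.6%, 56.1%, 38.6% and 48.5% of fenestrated endothelial-like cells had a Ramp3 UMI, against 3.15%, 4%, 2.68% and 4.32% of ECs and 0 to 0.42% of microglia-like cells. Fenestrated endothelial-like cells lay above all other classes, and the unnamed EC cluster, at 21.6 to 50.7 CPM, came next with no overlap with the capillary-like ECs at 14.9 to 20 CPM.

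The angiogenic cluster had less Ramp3 than any other EC cluster in each mouse, at 5.70, 2.91, 6.16 and 8.37 CPM, the first 2 from 2 UMIs and 1 UMI. Within KO it was lower than the other ECs by -1.92 (SE 0.142, adjusted p = 1.19e-08, edgeR), at 6.16 and 8.37 CPM against 25.6 and 28.8 CPM. With the finer EC clusters the Ramp3 difference was -0.51 (adjusted p = 0.0204). Apln-positive ECs were lower than Apln-negative ECs over the 4 mice by -0.55 (SE 0.138, adjusted p = 0.0368), at 15.4, 18, 10.8 and 14.7 CPM against 16.6, 21.1, 17.7 and 24.1 CPM. Each mouse had this direction, but the call did not hold with DESeq2 (adjusted p = 0.153), with thinned cells (adjusted p = 0.352), or without KO1 or KO2 (adjusted p = 0.317 and 0.338). Among ECs outside the angiogenic cluster the value was 0.13 (adjusted p = 0.754). Ramp3 and Adm thus moved in opposite directions in the angiogenic cluster. Outside it, Ramp3 was at 16.7 and 21.1 CPM in WT and at 25.6 and 28.8 CPM in KO, with both KO mice above both WT mice, and the difference of 0.51 (SE 0.14) did not pass (adjusted p = 0.159). With no filter on low counts it passed (0.48, adjusted p = 0.0144), as it did without WT2 (0.66, adjusted p = 0.0314).

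Ramp1, the CGRP receptor partner, was nearly absent from ECs and was carried by smooth muscle-like, microglia-like and lymphocyte-like (T or NK cell-like) cells. ECs of WT1, WT2, KO1 and KO2 held 22, 25, 7 and 12 UMIs of it, 0.832, 0.737, 0.309 and 0.546 CPM. Smooth muscle-like cells were at 109.7, 145, 115 and 137.5 CPM, higher than ECs by 7.72 (SE 0.165, adjusted p = 9.48e-10, edgeR; 5 of 5 members called against 42.4% of 11780 genes). Microglia-like cells were at 70.1, 66.3, 64.1 and 57.2 CPM, higher than ECs by 6.71 (SE 0.228, adjusted p = 9.99e-10; 5 of 5 called against 60.8% of 11897 genes). T or NK cell-like cells had 66.9, 137, 122 and 190.5 CPM, on 7, 24, 16 and 10 UMIs, and overlapped smooth muscle-like cells. Choroid plexus epithelium-like cells had 189.5 CPM in WT1, from 13 cells, and 0 to 12.4 CPM in the other mice. Pericyte-like cells, at 0, 3.03, 1.08 and 5.55 CPM, were above ECs by 2.15 (SE 0.616, adjusted p = 0.0194), a call on 0, 3, 4 and 9 UMIs that did not hold without KO2 (1.44, adjusted p = 0.282) or WT2 (2.19, adjusted p = 0.0528). Smooth muscle-like cells had Calcrl at 44.6 to 57.0 CPM, lower than ECs by -1.48 (SE 0.0924, adjusted p = 2.99e-07).

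The receptor subunits did not pass the test between KO and WT in any class. Ramp1 was tested in 5 of 11 classes, Ramp2 in 11 and Ramp3 in 9, with 0 called of each, and their lowest adjusted p were 0.371, 0.153 and 0.159. In fenestrated endothelial-like cells 0 of 3 members tested were called against 0% of 9831 genes by edgeR, where 392 genes had an unadjusted p under 0.05 and DESeq2 called 1. In smooth muscle-like cells 0 of 5 were called against 0% of 10252 genes by edgeR, with 555 genes at an unadjusted p under 0.05 and 1 called by DESeq2. In microglia-like cells it was 0 of 3, against 0.443% of 9024 genes. A difference that misses the test does not show equal levels: for Ramp2 in Apln-positive ECs, for example, the value was -0.50 (SE 0.2, adjusted p = 0.153), with both KO mice below both WT mice, and without WT1 it was -0.75 with an adjusted p of 0.00423.

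**Figure D5:**
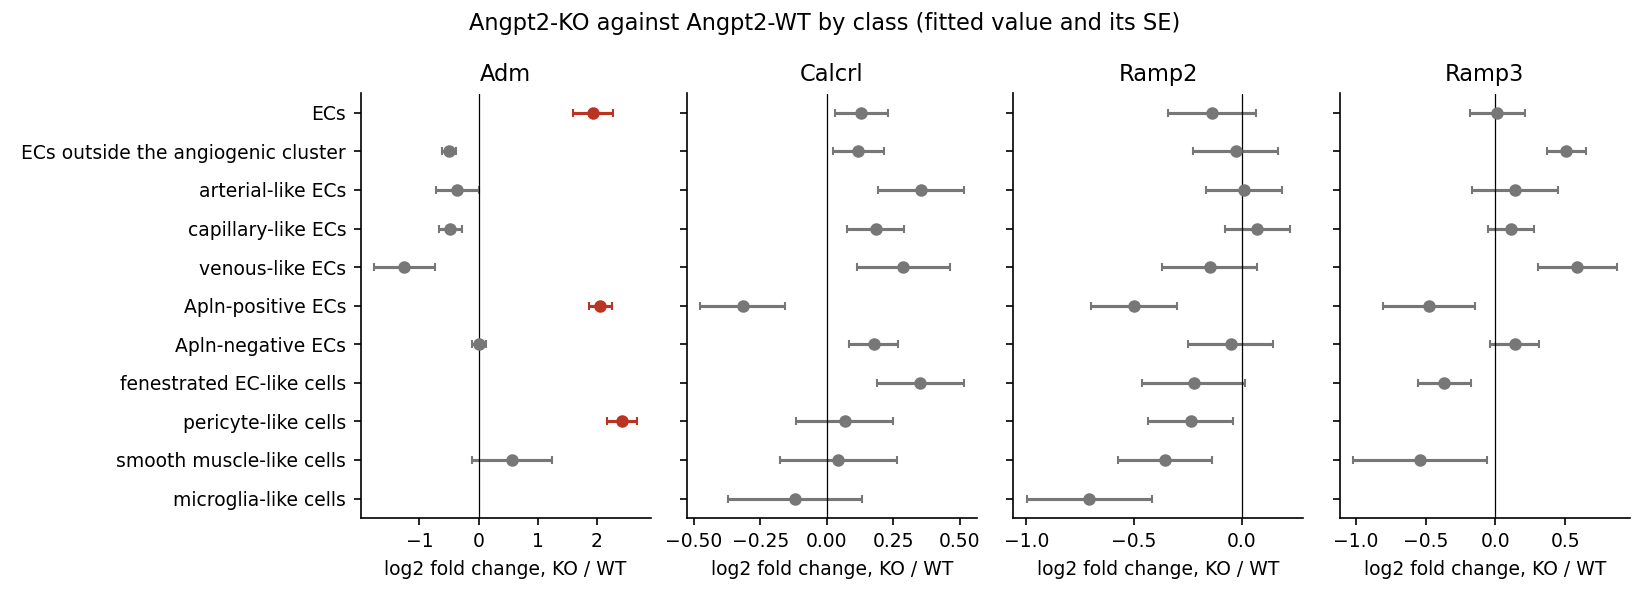
Fitted log2 fold change of KO over WT with its SE (x axes, a separate scale for each gene) for Adm, Calcrl, Ramp2 and Ramp3 in 11 classes (y axis); red marks an adjusted p under 0.05 and a missing point a gene below the filter. Adm is red in ECs, Apln-positive ECs and pericyte-like cells, at 1.94, 2.06 and 2.43, and the receptor subunits are red nowhere.

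In ECs Calcrl and Ramp2, and in fenestrated endothelial-like cells Calcrl and Ramp3, were found in the same cells at shares close to the product of their own shares. At 2000 UMIs, 17.8%, 18.7%, 22.1% and 20.3% of ECs of WT1, WT2, KO1 and KO2 had UMIs of both Calcrl and Ramp2, against 17.8%, 19.0%, 22.3% and 20.8% for the product of the shares. Fenestrated endothelial-like cells had both Calcrl and Ramp3 in 14.5%, 22.1%, 15.9% and 22.7% of cells, against 14.0%, 22.9%, 18.4% and 23.2%. Smooth muscle-like cells had both Calcrl and Ramp1 in 0.962%, 1.11%, 3.85% and 1.70% of cells, on 2, 2, 2 and 3 cells, against products of 2.20%, 2.10%, 2.59% and 1.74%. These shares count cells with detected UMIs and hold for the depth of 2000.

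Other genes of the pathway were described from lists chosen with results of these data known. The other CGRP family genes (Adm2, Calca, Calcb, Iapp and Calcr) were too low to be tested, 0 of 5 in all comparisons. The amidating enzyme Pam, the scavenger receptor Ackr3 and the peptidase Mme act on adrenomedullin after it is made. Between KO and WT ECs 0 of these 3 were called, against 6.02% of all genes (0.08, -0.26 and -0.46, adjusted p = 0.745, 0.215 and 0.395, edgeR). They are named here after their values were seen. Within KO, Ackr3 (-0.60, SE 0.0852) and Mme (-4.75, SE 0.677) were lower in the angiogenic cluster than in the other ECs. Against capillary-like ECs, venous-like ECs had more Mme (3.48, SE 0.331) and more Pam (0.50, SE 0.0821). In KO Apln-positive ECs Ackr3 was lower than in WT ones, by -0.71 (SE 0.167). Most of these cells lay in the angiogenic cluster in KO and outside it in WT. The contrast thus mixes genotype with cluster, and the part of each was not tested.

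Of 15 hypoxia response genes 14 were tested in ECs, and 1 was higher in KO and 0 lower, against 6.02% of all genes called. That gene was Egln3, a prolyl hydroxylase of the hypoxia-inducible factors, at 0.116 CPM in WT and 7.85 CPM in KO on average (6.01, SE 0.822, adjusted p = 0.00548; list median -0.03). In the ECs of WT1 and WT2, 3 UMIs equal 0.114 and 0.0884 CPM. The WT mean of Egln3 was near that floor, so the size of the difference rests on few WT UMIs. Within KO the angiogenic cluster had 4 of 13 higher than the other ECs, Egln3 (5.46, SE 0.306), Ankrd37 (1.11, SE 0.136), the glycolytic enzyme Pgk1 (0.60, SE 0.0885) and the collagen hydroxylase P4ha1 (0.59, SE 0.094), and 2 lower. Of the 10998 genes tested there, without the variable genes of the clustering, 20.8% were called, and the list median was -0.04. Ankrd37, Pgk1 and P4ha1 were also higher in Apln-positive than in Apln-negative ECs over the 4 mice by 1.21 (SE 0.253), 0.51 (SE 0.121) and 0.63 (SE 0.117), and Epas1, which encodes HIF-2 alpha, was lower (-0.36, SE 0.0657), 3 and 1 of 13 tested against 8.04% of all genes. Outside the angiogenic cluster Ankrd37 was lower in KO than in WT (-1.23, SE 0.19, adjusted p = 0.0234), the single call among 13, against 1.28% of all genes.

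Of 18 genes of receptor signalling, from the Gs protein to protein kinase A, Epac and the arrestins, 0 were called between KO and WT ECs, against 6.02% of all genes, with a list median of 0.11. In the angiogenic cluster of KO 5 of 18 tested were higher than in the other ECs, among them Adcy3 (1.17, SE 0.383), Arrb1 (0.42, SE 0.144) and the Epac gene Rapgef4 (0.35, SE 0.0714), and 2 lower, among them Adcy4 (-0.51, SE 0.0726). Of the 10998 genes tested there 20.8% were called, and the list median was 0.05. Against 35.8% called of the 10218 genes tested, venous-like ECs, where Calcrl was high, had 3 higher and 7 lower of 17 than capillary-like ECs. The largest of these was Rapgef4 at 28.8 CPM against 242 CPM on average (-3.21, SE 0.111, adjusted p = 8.01e-17).

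By Pearson correlation of log2(CPM + 1) over 48 sums of a mouse and a class (13 classes, 9075 genes with a mean of 10 CPM or more), the genes most like Adm were Trim16, Slc1a1, 4430402I18Rik, Megf6 and Prnd (r from 0.785 to 0.761). Over the 20 sums of the 5 EC clusters they were Arhgef7, Fscn1, Plod1, Rars and Csrp2 (r from 0.91 to 0.894). For Calcrl over all classes they were Cpd, Slfn5, Chmp2b, Iigp1 and Rai14 (0.927 to 0.894), and over the EC clusters Nrp2, Mbnl2, Klhl3, Foxo1 and Fmnl2 (0.937 to 0.918). Ramp2 was most like Kank3, Egfl7, Kifc3, S100a16 and Sema7a over all classes (0.977 to 0.956), and Ramp3 like Plscr2, Rdx, Irx3, Ptpru and Ripply3 (0.879 to 0.807). Ramp1 was most like Asb2, Mrps6, Ckb, Rtn4rl1 and S100a4 (0.84 to 0.789). Sums of one mouse share a library, and these values are descriptions.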

How the data were processed

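Single-cell suspensions of bead-isolated brain vascular fragments were run on the 10x 3′ v3.1 assay, and per the labels and the study's methods reads were aligned to mm10 and counted with Cell Ranger (6.1.2 in the submitters' processing notes). The deposited values are raw UMI counts per gene and barcode, after the authors' cell calling.

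Cells with over 500 genes and under 10% mitochondrial UMIs were kept. They were clustered in R 4.3.3 with Seurat 5.3.0 (2000 variable genes, 50 components, resolution 0.2 for all cells and 0.4 for ECs), with 51 member, pathway and Apln-related genes held out. No doublet caller was run. Cells with markers of another class (2 or more in ECs, 5 or more endothelial markers elsewhere) were left out as an alternative. UMIs were summed per mouse and class (20 cells or more) and tested with edgeR 4.0.16 (quasi-likelihood, TMM, filterByExpr, with limma 3.58.1), with Benjamini-Hochberg adjustment over all genes tested and a threshold of 0.05. Classes of the same mice were compared with mouse as a term. Between EC clusters or cell types the variable genes used for the clustering were not tested, and in Apln comparisons Apln was not. The testing step was also run on simulated counts with the same dispersion for every gene, which does not show the rate of false calls at the spread of these mice. Shares carry exact Clopper-Pearson 95% intervals and were compared after thinning to 2000 UMIs with scuttle 1.12.0. Alternatives were DESeq2 1.42.0, total UMIs in place of TMM, no filter, thinned cells, resolution 0.6, a replicate block, and leaving out each mouse. The named genes were the 5 members, of each pathway list at most the 4 called genes with the largest change in a comparison, and the 5 genes most like each member. Members and lists were chosen with earlier results of these data known. Some genes of the lists are not reported here.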

Additional observations from a re-analysis of the deposited data

Results flagged for a closer look

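Of the 4 members tested, 3 had a difference between Apln-positive and Apln-negative ECs that itself differed between genotypes, against 4.74% of all 12876 genes tested (edgeR interaction term on UMIs summed per mouse). For Adm the value was 2.07 on the log2 scale (SE 0.171, adjusted p = 2.49e-12): the difference by Apln was 1.71 in WT and 3.77 in KO, and Apln-positive ECs were the higher class in 4 of 4 mice. It stayed between 1.71 and 2.18 under the alternatives and did not pass only where Apln-positive cells were set after thinning (adjusted p = 0.148). None of these alternatives split the cells by the angiogenic cluster. That cluster held 9 of 38 and 9 of 64 Apln-positive ECs in WT1 and WT2, and 301 of 392 and 177 of 308 in KO1 and KO2.

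For Calcrl it was -0.48 (SE 0.134, adjusted p = 0.0227), from 0.35 in WT and -0.13 in KO. For Ramp2 it was -0.41 (SE 0.104, adjusted p = 0.0109), from 0.02 in WT and -0.40 in KO. Neither held under thinning, where Calcrl gave 0.42 and Ramp2 -0.0067, and Calcrl was lost without KO1 or WT2 (adjusted p = 0.36 and 0.802), as Ramp2 was without WT1 or WT2 (adjusted p = 0.0762 and 0.265). The WT Apln-positive ECs behind all 3 values number 38 and 64. The p of each interaction term leans on variance shared across genes and does not measure mouse-to-mouse spread alone.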

How the results depend on the processing

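Of 84 member results with a test, 33 passed, and 292 of their 334 alternatives kept call and direction, while 5 turned the sign. Of 536 alternatives of the results that did not pass, 19 passed and 56 turned the sign. The genotypes had 2 mice each, and WT mice had 38 and 64 Apln-positive ECs. For the values below the cause was not tested.

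Same-numbered mice were of the same sex and carry the same replicate label. The paper describes cells from independent experiments, but the labels do not say whether a number marks an experiment, litter or day. The main fits of KO against WT had no term for the number. Differences of sex between the numbers, and of experiment if the numbers mark it, therefore stayed in the spread within a genotype. What the number marks was not tested. In ECs the deviations of same-numbered mice correlated at r = 0.101 over 13530 genes (Spearman -0.141, and -0.133 without sex genes). With the replicate as a block, Adm was 1.80 in ECs, 2.01 in Apln-positive ECs and 2.45 in pericyte-like cells, and genes called in ECs went from 814 to 1320.

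Values are log2 differences and genes are counts of genes called, for KO against WT unless a pair of classes is named. With finer EC clusters, the sign turned in angiogenic cluster against the rest (Calcrl -0.043), arterial-like ECs (Ramp2 -0.047), venous-like against capillary-like ECs (Ramp2 -0.29). With Apln-positive cells set after thinning, the sign turned in Apln-positive against -negative ECs (Calcrl -0.18), the genotype difference by Apln (Calcrl 0.50, Ramp2 0.39), Apln-negative ECs (Adm -0.27, Ramp2 0.014), Apln-positive ECs (Calcrl 0.41). There, the call or count changed in Apln-positive against -negative ECs (genes 588, Ramp2 -0.65, Ramp3 -0.62), Apln-positive ECs (Adm 1.58, genes 11). With thinned cells, the sign turned in Apln-positive against -negative ECs (Calcrl -0.13), Apln-positive ECs (share of cells with Calcrl, in points 6.96, Calcrl 0.58), the genotype difference by Apln (Calcrl 0.42), Apln-negative ECs (Adm -0.37, Ramp2 0.014), ECs outside the cluster (Ramp2 0.019), pericyte-like (Ramp2 0.25), smooth muscle-like (Calcrl -0.48, Ramp1 0.041). There, the call or count changed in Apln-positive against -negative ECs (genes 634, Ramp3 -0.66), Apln-positive ECs (genes 218), pericyte-like (genes 108). In ECs outside the angiogenic cluster, the sign turned in Apln-positive against -negative ECs (Ramp2 0.023, Ramp3 0.13). There, the call or count changed in Apln-positive against -negative ECs (Calcrl 0.27). In the angiogenic cluster of the KO mice, the sign turned in Apln-positive against -negative ECs (Calcrl -0.34). There, the call or count changed in Apln-positive against -negative ECs (genes 2840, Ramp2 -0.55, Ramp3 -0.55). Without the filter, the call or count changed in Apln-positive against -negative ECs (genes 1485), ECs (genes 1765), pericyte-like (genes 828). Without mouse as a term, the call or count changed in Apln-positive against -negative ECs (genes 145, Ramp3 -0.52). With DESeq2, the call or count changed in Apln-positive against -negative ECs (Ramp3 -0.52), Apln-positive ECs (genes 563), pericyte-like (genes 257). Without mixed cells, the sign turned in fenestrated endothelium against ECs (Calcrl -0.14), arterial-like ECs (Adm 0.14, Ramp2 -0.0067), ECs (Ramp3 -0.069), fenestrated endothelium (Ramp2 0.085), microglia-like (Calcrl 0.32), pericyte-like (Ramp2 0.66), smooth muscle-like (Ramp2 0.61), pericyte-like against ECs (Adm -0.78). There, the call or count changed in pericyte-like (Adm 2.21, genes 5). In the angiogenic cluster alone, chosen after seeing the data, the call or count changed in ECs (Adm 0.18, genes 11). With the replicate block, the sign turned in ECs outside the cluster (Ramp2 5.17e-06). There, the call or count changed in ECs (genes 1320). In pericyte-like cells with no Apln UMI, chosen after seeing the data, the call or count changed in pericyte-like (Adm 0.47, genes 172).

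Leaving out each mouse in turn gave these lowest and highest values where a call, count or sign changed: Apln-negative ECs (Adm -0.071 to 0.12, genes 407 to 1102, Ramp2 -0.30 to 0.27, Ramp3 -0.089 to 0.35), ECs (Adm 1.17 to 2.47, genes 357 to 1414, Ramp2 -0.39 to 0.18, Ramp3 -0.27 to 0.28), smooth muscle-like (Adm -0.61 to 1.88, Calcrl -0.12 to 0.24, genes 29 to 66, Ramp1 -0.28 to 0.12), pericyte-like against ECs (Adm -0.050 to 0.86, Ramp1 1.44 to 2.48), Apln-positive against -negative ECs (Calcrl -0.083 to 0.20, genes 157 to 1418, Ramp3 -0.66 to -0.46), the genotype difference by Apln (Calcrl -0.65 to -0.21, genes 240 to 644, Ramp2 -0.41 to -0.39), microglia-like (Calcrl -0.34 to 0.12, genes 2 to 163, Ramp2 -1.16 to -0.098), pericyte-like (Calcrl -0.12 to 0.19, genes 135 to 618, Ramp2 -0.50 to 0.080), Apln-positive ECs (genes 543 to 1351, Ramp2 -0.75 to -0.19), arterial-like ECs (genes 74 to 159, Ramp2 -0.20 to 0.23, Ramp3 -0.19 to 0.39), capillary-like ECs (genes 130 to 320, Ramp2 -0.14 to 0.31, Ramp3 -0.032 to 0.28), ECs outside the cluster (genes 246 to 981, Ramp2 -0.30 to 0.28, Ramp3 0.36 to 0.66), fenestrated endothelium (genes 2 to 11, Ramp2 -0.53 to 0.16), venous-like ECs (genes 0 to 189, Ramp2 -0.47 to 0.25), venous-like against capillary-like ECs (Ramp2 0.13 to 0.34).

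Genes called in the other comparisons, with the lowest and highest count over the alternatives, were: angiogenic cluster against the rest (2286, 435 to 2577), arterial-like against capillary-like ECs (3537, 1646 to 3586), the genotype difference by Apln (610, 4 to 649), fenestrated endothelium against ECs (4075, 944 to 4213), Apln-negative ECs (535, 407 to 1365), arterial-like ECs (32, 7 to 159), capillary-like ECs (211, 45 to 514), ECs outside the cluster (169, 100 to 981), fenestrated endothelium (0, 0 to 52), microglia-like (40, 2 to 204), smooth muscle-like (0, 0 to 66), venous-like ECs (18, 0 to 190), microglia-like against ECs (7230, 5422 to 7602), pericyte-like against ECs (3050, 2061 to 3736), smooth muscle-like against ECs (4997, 3372 to 5792), venous-like against capillary-like ECs (3660, 1111 to 3799).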
